A study of Homo sapiens with 24 samples.

Results

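DNA transposons are followed here as 106 of the 992 repeat names in a table of RNA-seq counts. They were chosen by name alone, as every name that begins with Tigger, Charlie, Cheshire, Arthur, Kanga, Looper, Zaphod, Ricksha, MADE, HSMAR, ORSL, MER5A, MER5B, MER1A, MER1B, MER20 or MER53. No measured value entered the choice. The names comprised 33 Tigger, 38 Charlie and Cheshire, 8 MER5, MER1, MER20 and MER53, 4 mariner (HSMAR and MADE), 7 Kanga, 10 Arthur, Zaphod and ORSL, 1 Looper and 5 Ricksha names. The annotated sequence under them summed to 64.3 Mb.

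DNA transposons are cut-and-paste elements that a transposase excises and inserts elsewhere. In the human genome they are old fossils that no longer move, and most copies are short internally deleted relatives of the elements that encoded a transposase. Tigger, Kanga, HSMAR and MADE belong to the Tc1/mariner superfamily, Charlie, Cheshire, Arthur, Zaphod, ORSL and the MER names listed above to the hAT superfamily, Looper to piggyBac and Ricksha to the MULE elements. Methylation of lysine 9 of histone H3 (H3K9) is a mark of silent chromatin found on many repeats. G9a, made by EHMT2, and its partner GLP mainly add the dimethyl form, and SUV39H1 mainly adds the trimethyl form.

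The RNA came from U937, a human myelomonocytic cell line, in 24 libraries that fell into 8 groups of 3. In the inhibitor arm cells received UNC0638, which blocks the catalytic activity of G9a and GLP, at 2 or 4 µM, or DMSO as the mock treatment. In the knockdown arm cells carried G9a shRNA #2 or #3, SUV39H1 shRNA #2 or #4, or a scrambled shRNA, called hairpins below. UNC0638 cells were harvested after 3 days, and cells with G9a or SUV39H1 hairpins had been infected with lentivirus and kept for 3 days in puromycin. For DMSO cells no time of harvest is stated, and for scrambled cells no selection step. The labels do not say whether replicates were separate cultures, so the p-values measure only the spread between these libraries. All groups are U937, and no clone is named.

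Each library held 31545854 to 53803704 gene counts and 1837411 to 4163513 repeat counts. EHMT2 averaged 73.7 and 73.2 CPM (scaled to gene counts with TMM factors) in G9a hairpins 2 and 3, against 144 CPM in scrambled libraries, and SUV39H1 averaged 18.6 and 21.1 CPM in its hairpins 2 and 4, against 58.2 CPM in scrambled libraries, so both knockdowns went with their labels. The 8 myeloid markers averaged 0.955 CPM (MPO) to 874 CPM (LYZ). Of 11 markers of T cells, B cells, erythroid cells, epithelium and fibroblasts, 10 averaged at most 0.199 CPM. The exception was the B-cell gene CD79A, at 3.37 to 25.9 CPM, while the B-cell marker MS4A1 stayed at or under 0.0245 CPM.

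The unit of each value is a repeat name, with counts summed over all of its copies and no position given. RNA that an element starts itself and RNA of a host gene that crosses a copy in an intron or an untranslated region therefore cannot be told apart. In bulk RNA, fewer cells of a type and less RNA per cell cannot be told apart either. Of the 106 names, 104 passed a filter on low counts and were tested. Charlie1b_Mars did not pass, with at most 0.0241 CPM in any library, and Tigger2a_Car was at 0 in every library. Fold changes are log2 ratios with their standard error (SE), tested with edgeR's quasi-likelihood test on the counts of all 929 repeat names that passed, and a name was called changed at a Benjamini-Hochberg adjusted p under 0.05 over those names. In the main scaling a library's size was its gene counts with TMM factors, which keeps a shift shared by all repeats visible. In the second scaling it was the total of the repeat table, which takes such a shift out.

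Levels among the names differed widely. MER5A, a short hAT element, had the most counts, with 4421 kb of annotated sequence and 359 to 373 CPM in scrambled libraries. The MER names, though only 8, held 35.4% of all counts on DNA transposons, the Tigger names 31% and the Charlie and Cheshire names 24.6%. The mariner names held 4.82%, Arthur, Zaphod and ORSL 1.92%, Kanga 1.83%, Ricksha 0.317% and Looper 0.182%. Per length, over all libraries, the level was 5.85 CPM per Mb for Ricksha at the low end and 1100 CPM per Mb for Charlie12 at the high end, with a median of 54.5 CPM per Mb over the 104 names and of 29.6 CPM per Mb over all repeat names tested.

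Relative to gene counts, the summed RNA of DNA transposons was higher with knockdown of either enzyme than with the scrambled hairpin, while the inhibitor groups overlapped. The summed level of all 106 names was 4281 ± 113 and 4147 ± 216 CPM without TMM factors in G9a hairpins 2 and 3, 4517 ± 27.4 and 4815 ± 59.2 in SUV39H1 hairpins 2 and 4, and 3724 ± 112 in scrambled libraries (SD, n = 3 each). The lowest hairpin library, a G9a hairpin 3 library at 3955, lay above the highest scrambled library at 3854. In the inhibitor arm the level was 3762 ± 199 with DMSO, 3603 ± 59.8 at 2 µM and 3702 ± 258 at 4 µM (SD, n = 3 each). These 3 groups overlapped, and the 4 µM libraries alone spanned 3421 to 3928.

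The whole repeat table moved in the same way. Repeat counts equalled 6.96% and 6.79% of gene counts in G9a hairpins 2 and 3, 7.40% and 7.79% in SUV39H1 hairpins 2 and 4, and 5.76% in scrambled libraries. DNA transposons took 6.15% and 6.11% of all repeat counts in G9a hairpins 2 and 3, 6.11% and 6.18% in SUV39H1 hairpins 2 and 4, and 6.46% in scrambled libraries. The share of the repeat table was thus lower in hairpin than in scrambled libraries while the level per gene count was higher. All 12 hairpin libraries lay below the lowest scrambled library, at 6.31%. The DMSO libraries, at 6.20% to 6.54% with a mean of 6.33%, overlapped the hairpin libraries in this share. The TMM factors, 0.968 to 0.989 in G9a hairpin libraries, 1.03 to 1.07 in SUV39H1 hairpin libraries and 0.968 to 0.975 in scrambled libraries, reduce the log2 ratio of the summed SUV39H1 level, which was 0.32 without and 0.21 with the factors.

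**Figure D1:**
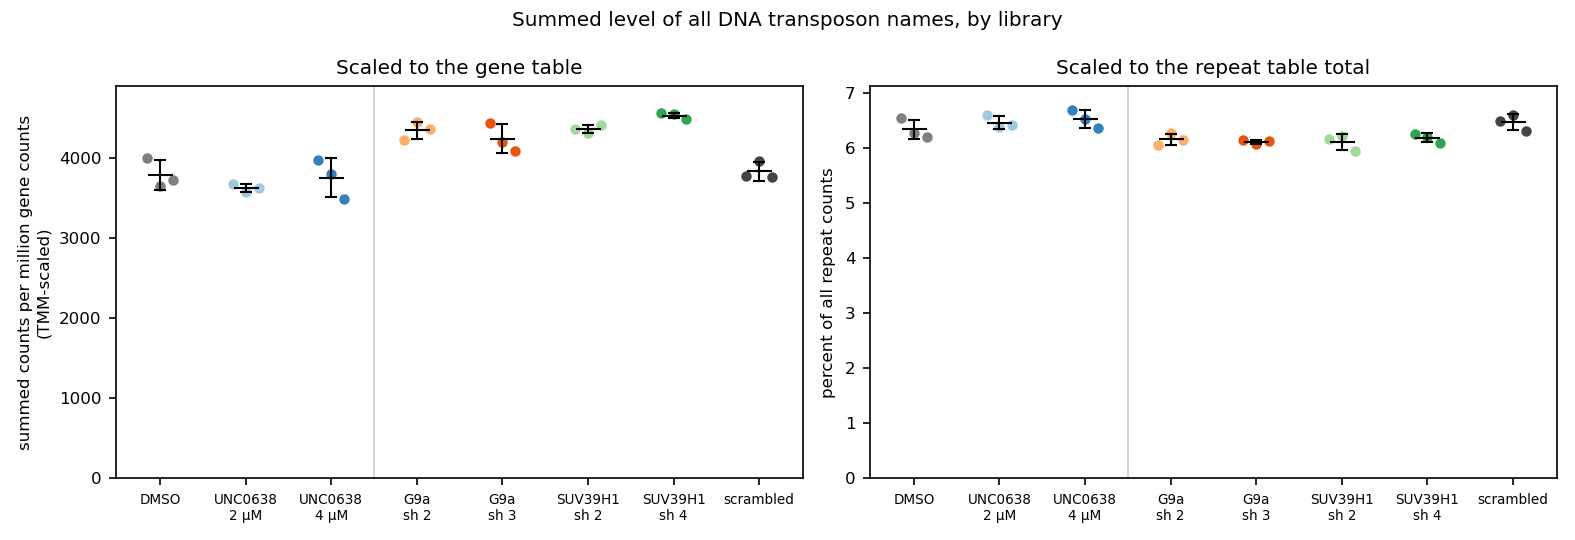
Summed level of the 106 DNA transposon names in each library, as counts scaled to gene counts with TMM factors (left) and as a percent of all repeat counts (right); points are libraries and bars the mean ± SD of 3. The hairpin libraries lie above the scrambled libraries on the left and below them on the right, where the group means run from 6.11% to 6.46% in the knockdown arm.

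With G9a knocked down, 76 of the 104 names rose and 3 fell against scrambled, where 72.9% of all repeat names tested were called, 68.8% higher and 4.09% lower. The median log2 change was 0.25 over the DNA transposon names and 0.28 over all repeat names. The share that rose was 73.1%, near that of the table as a whole. Against repeat totals, where 40.8% of all names were called, 21.6% higher and 19.3% lower, and the median of all names came to 0.04, 19 DNA transposon names were higher and 27 lower, with a median of 0.01. Of the 76 names that rose against gene counts, 19 also rose against repeat totals, 50 were not called and 7 were lower. Hairpin 2 gave 76 higher and 2 lower names, where 69.3% of all names were called, 66.1% higher and 3.23% lower. Hairpin 3 gave 66 higher and 3 lower, where 63.8% were called, 60.3% higher and 3.55% lower. In 69 names every G9a library lay above every scrambled library and in 3 below, where 58.6% and 2.80% of all repeat names did. Both hairpins are compared with the same scrambled libraries.

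Charlie2a, a hAT element, had the smallest p of the names that rose with G9a hairpins. It stood at 30.5, 30.2 and 31 CPM in G9a hairpin 2 libraries and 32.1, 30.3 and 29.6 CPM in hairpin 3 libraries, against 18.4, 19.3 and 18.3 CPM in scrambled libraries. All 6 knockdown libraries lay above all 3 scrambled ones, a log2 change of 0.71 ± 0.06 (SE, edgeR adjusted p = 3.18e-10), and it remained higher against repeat totals, at 0.47.

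MER1A and MER1B, short hAT elements, both rose. MER1A stood at 58.3, 60.9 and 64.1 CPM in G9a hairpin 2 libraries and 63.8, 62.2 and 58.2 CPM in hairpin 3 libraries, against 45.3, 46.1 and 46.5 CPM in scrambled libraries. The groups did not overlap, and MER1A rose by 0.41 ± 0.05 and MER1B by 0.35 ± 0.04 on the log2 scale (SE, edgeR adjusted p = 2.1e-08 and 2.13e-08). Both were higher against repeat totals too, by 0.18 and 0.11.

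Of the other names with the smallest p, Tigger1, the Tigger name with the most counts and 9267 kb of annotated sequence, stood at 323, 347 and 343 CPM in G9a hairpin 2 libraries and 351, 322 and 312 CPM in hairpin 3 libraries, against 255, 271 and 262 CPM in scrambled libraries. It rose by 0.34 ± 0.04, Arthur1 by 0.52 ± 0.07, Charlie7 by 0.42 ± 0.06, Tigger3a by 0.30 ± 0.04 and MER20B by 0.29 ± 0.04 on the log2 scale (SE, edgeR adjusted p at most 5e-07 for each). Against repeat totals Tigger1, Arthur1 and Charlie7 stayed higher, and Tigger3a (0.06) and MER20B (0.05) were not called.

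Tigger10, Tigger12 and MER53 fell with G9a hairpins. MER53, a short hAT element, stood at 131, 139 and 119 CPM in G9a hairpin 2 libraries and 138, 122 and 132 CPM in hairpin 3 libraries, against 196, 236 and 164 CPM in scrambled libraries. The groups did not overlap, and the log2 change was -0.61 ± 0.11 (SE, edgeR adjusted p = 1.9e-05). Tigger10 stood at 64.2, 68.0 and 66.6 CPM in hairpin 2 libraries and 67.9, 62.3 and 65.7 CPM in hairpin 3 libraries, against 82.1, 86.1 and 79.0 CPM in scrambled libraries, a log2 change of -0.33 ± 0.04 (SE, edgeR adjusted p = 6.03e-08).

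In Tigger10 the controls differed as well. DMSO libraries stood at 75.6, 67.2 and 72.3 CPM, so all 3 scrambled libraries lay above every DMSO and every hairpin library. Tigger12 changed by -0.12 ± 0.04 (SE, edgeR adjusted p = 0.00933). With hairpin 2 alone Tigger12 was not called, at -0.08, and with hairpin 3 it was lower, at -0.15 (edgeR adjusted p = 0.107 and 0.00499). Every scrambled library of Tigger12 also lay above every DMSO library. That log2 change, 0.12, was not called (edgeR adjusted p = 0.121). All 3 names were lower against repeat totals too, at -0.85 for MER53, -0.56 for Tigger10 and -0.35 for Tigger12.

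With SUV39H1 knocked down, 74 of the 104 names rose and 8 fell against scrambled, where 82.1% of all repeat names tested were called, 75.5% higher and 6.67% lower. The median log2 change was 0.31 over the DNA transposon names and 0.36 over all repeat names. Against repeat totals, where 51.6% of all names were called, 32.5% higher and 19.1% lower, and their median came to 0.07, 25 names were higher and 31 lower, with a median of 0.02. Of the 74 names that rose against gene counts, 25 also rose against repeat totals, 44 were not called and 5 were lower. Hairpin 2 gave 69 higher and 9 lower names, where 76.6% of all names were called, 70.3% higher and 6.35% lower. Hairpin 4 gave 78 higher and 6 lower, where 79.5% were called, 74.7% higher and 4.84% lower, again against the same scrambled libraries. In 70 names every SUV39H1 library lay above every scrambled library and in 6 below, where 66.4% and 4.31% of all repeat names did.

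Of the names with the smallest p, Ricksha_0, Arthur1B and Arthur1 changed most with SUV39H1 hairpins. Ricksha_0, a MULE-related element of low level, stood at 5.10, 4.39 and 4.98 CPM in SUV39H1 hairpin 2 libraries and 5.54, 5.94 and 6.43 CPM in hairpin 4 libraries, against 2.26, 2.27 and 2.92 CPM in scrambled libraries. It rose by 1.11 ± 0.09 on the log2 scale (SE, edgeR adjusted p = 3.2e-11) and by 0.83 against repeat totals. Its lowest knockdown library stood clear of its highest scrambled one.

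Arthur1B, a hAT element, stood at 14.5, 14.3 and 14.5 CPM in SUV39H1 hairpin 2 libraries and 12.0, 13.4 and 12.3 CPM in hairpin 4 libraries, against 6.94, 7.76 and 7.09 CPM in scrambled libraries. It rose by 0.88 ± 0.07 and its relative Arthur1 by 0.85 ± 0.07 on the log2 scale (SE, edgeR adjusted p = 3.6e-12 and 5.83e-12). The scrambled libraries were the lowest of all groups for Arthur1B. DMSO libraries stood at 9.38, 8.78 and 9.60 CPM, and G9a hairpin libraries at 8.38 to 10.6 CPM, so the G9a libraries overlapped the DMSO ones while lying above the scrambled ones.

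All 10 Arthur, Zaphod and ORSL names rose with SUV39H1 hairpins, with a median of 0.59, and 8 of the 10 stayed higher against repeat totals, with a median of 0.31. Over all repeat names those medians were 0.36 and 0.07, and 75.5% and 32.5% of names were called higher. Their summed level was 101 ± 2.28 and 92.8 ± 0.549 CPM in SUV39H1 hairpins 2 and 4, 80.3 ± 0.837 and 80.1 ± 3.71 CPM in G9a hairpins 2 and 3, and 64.7 ± 1.90 CPM in scrambled libraries (SD, n = 3 each). The SUV39H1 libraries, from 92.1 CPM up, lay above the G9a libraries, at most 83.8 CPM, and these above the scrambled libraries, at most 66.8 CPM. The scrambled mean was the lowest of all groups. DMSO libraries averaged 69.8 ± 4.33 CPM (SD, n = 3). They spanned 65.0 to 73.5 CPM, overlapping the scrambled libraries and lying below the G9a libraries. ORSL itself rose by 0.53 ± 0.05, and Zaphod3 by 0.48 ± 0.06 on the log2 scale (SE, edgeR adjusted p = 3.97e-10 and 1.38e-08).

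Tigger3c, Charlie7, MER1A and MER1B completed the 8 names with the smallest p. Tigger3c stood at 34.6, 32.9 and 35.2 CPM in SUV39H1 hairpin 2 libraries and 35.4, 34.1 and 36.4 CPM in hairpin 4 libraries, against 22.1, 23 and 22.9 CPM in scrambled libraries. The groups did not overlap, and Tigger3c rose by 0.62 ± 0.04, Charlie7 by 0.60 ± 0.06, MER1A by 0.51 ± 0.05 and MER1B by 0.40 ± 0.04 on the log2 scale (SE, edgeR adjusted p at most 4.61e-10 for each). All of these were higher against repeat totals as well.

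The 8 names that fell in the mean of the SUV39H1 hairpins were Tigger10, Tigger12, Tigger3d, Charlie6, Charlie12, Charlie13a, Charlie24 and Cheshire_Mars_. Only 5 of them were called lower with each hairpin alone. Tigger3d and Charlie24 were not called with hairpin 4, at -0.07 and -0.09 (edgeR adjusted p = 0.521 and 0.101). Charlie13a was not called with hairpin 2, at -0.15 (edgeR adjusted p = 0.0628). Charlie12 stood at 7.27, 5.92 and 6.93 CPM in SUV39H1 hairpin 2 libraries and 7.22, 6.83 and 7.42 CPM in hairpin 4 libraries, against 9.75, 9.77 and 8.24 CPM in scrambled libraries. It fell by 0.41 on the log2 scale, with an SE of 0.08 (edgeR adjusted p = 3.01e-05). Charlie6 stood at 40.5, 39.1 and 38.5 CPM in hairpin 2 libraries and 36.6, 34.9 and 35.2 CPM in hairpin 4 libraries, against 44.7, 45.4 and 41.9 CPM in scrambled libraries, a log2 change of -0.23 ± 0.04 (SE, edgeR adjusted p = 1.2e-05).

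In both of these Charlie names no knockdown library reached the lowest scrambled one, though the Charlie6 knockdown libraries overlapped the DMSO libraries. Tigger10 changed by -0.29 ± 0.04, Tigger12 by -0.25 ± 0.04, Charlie13a by -0.25 ± 0.06, Charlie24 by -0.17 ± 0.04, Cheshire_Mars_ by -0.50 ± 0.18 and Tigger3d by -0.22 ± 0.08 (SE, edgeR adjusted p between 1.26e-07 and 0.0157). For Charlie13a and Tigger3d single libraries of the groups overlapped. The call of Cheshire_Mars_, a name with 1.95 kb of annotated sequence, was lost without scrambled replicate 1 (-0.43, edgeR adjusted p = 0.0533), and that of Tigger3d without scrambled replicate 3 (-0.18, edgeR adjusted p = 0.0926). For Cheshire_Mars_ every scrambled library also lay above every DMSO library, a log2 change of 0.43 that was not called (edgeR adjusted p = 0.275). All 8 were lower against repeat totals.

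**Figure D2:**
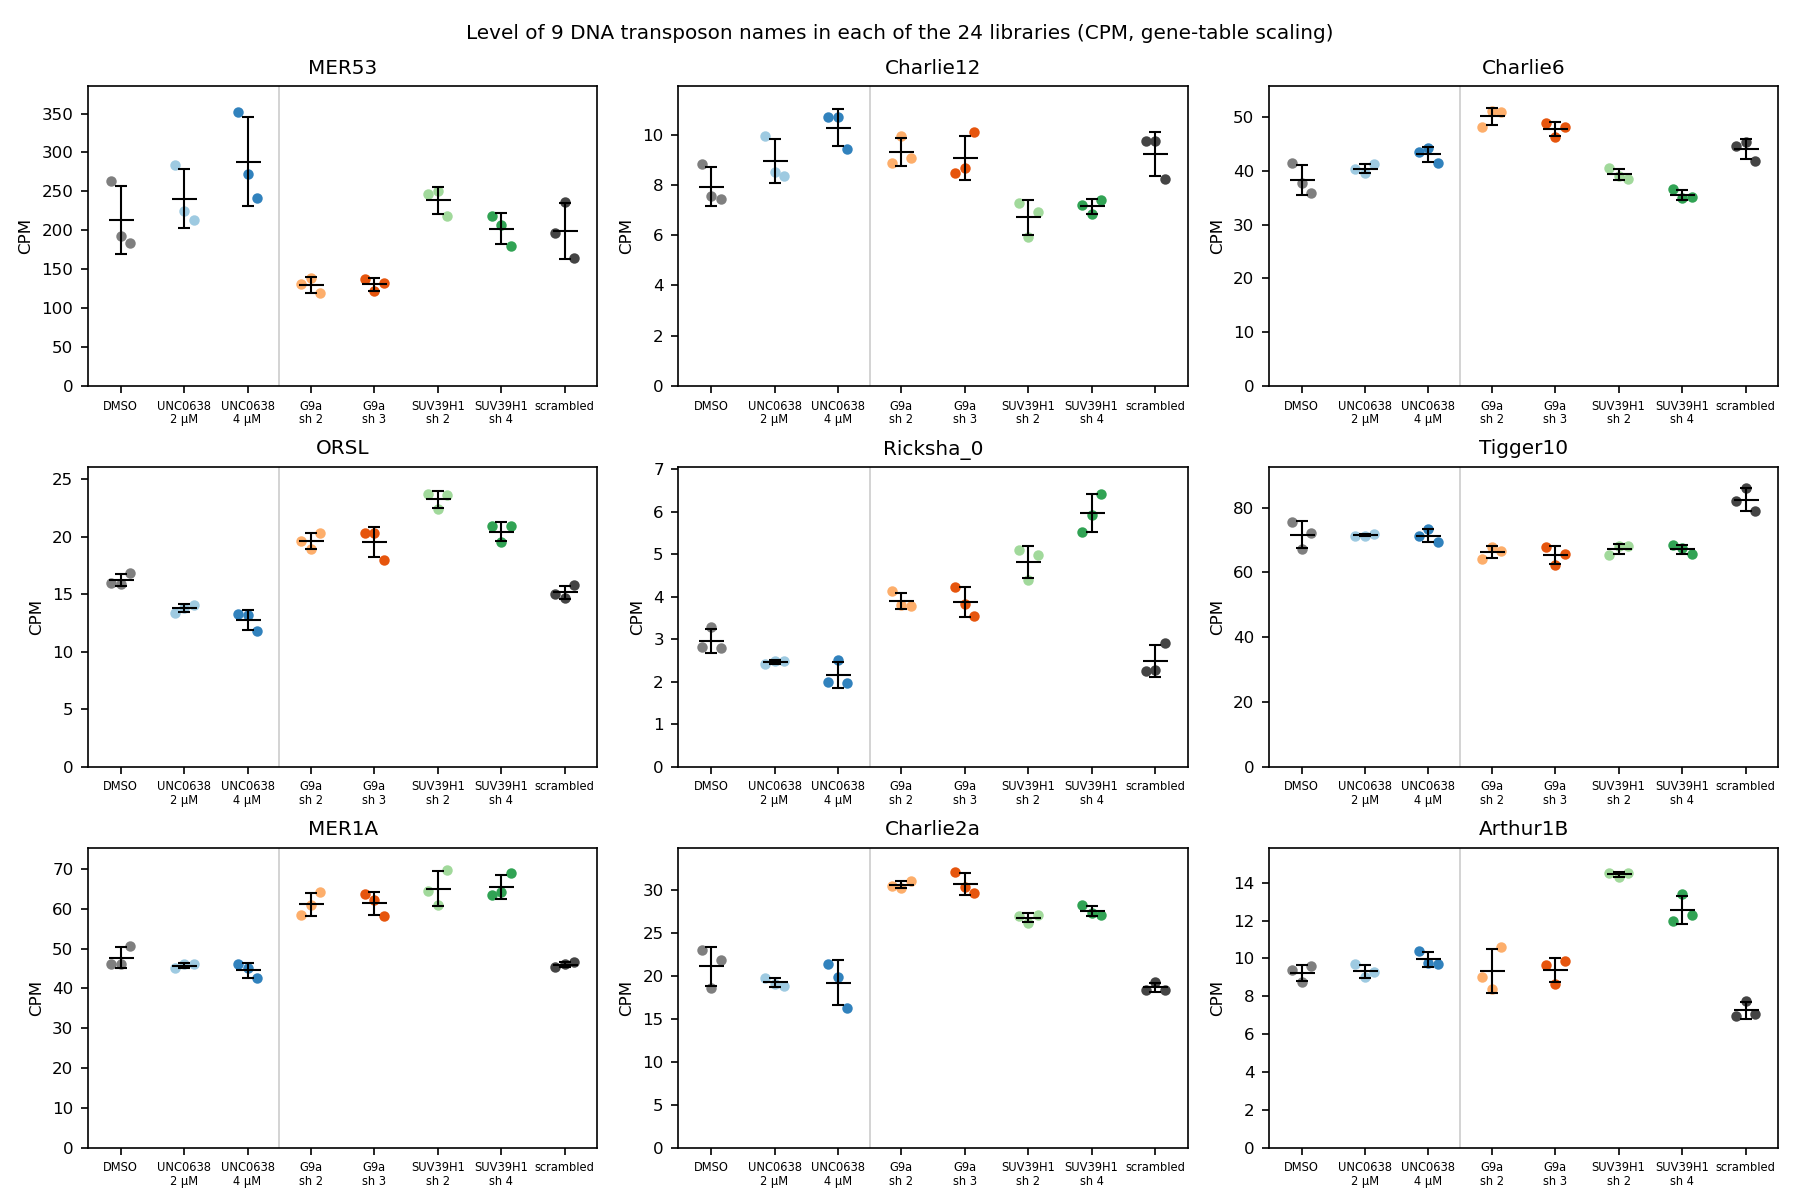
Level in CPM (gene-table scaling with TMM factors) of 9 DNA transposon names in each library; points are libraries, bars the mean ± SD of 3, and the inhibitor arm stands left of the grey line. MER53 is lowest in G9a hairpin libraries, Charlie12 and Charlie6 are lower in SUV39H1 hairpin than in scrambled libraries, Tigger10 is highest in scrambled libraries, and Ricksha_0 and Arthur1B are highest in SUV39H1 hairpin libraries.

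The family groups, some of only 1 to 5 names, differed in how many of their names rose. With G9a hairpins 20 of 32 Tigger names tested, 30 of 37 Charlie and Cheshire names, 7 of 8 MER names, 5 of 7 Kanga names, 8 of 10 Arthur, Zaphod and ORSL names, 3 of 5 Ricksha names, 2 of 4 mariner names and Looper rose. With SUV39H1 hairpins the counts were 20, 25, 7, 5, 10, 4, 2 and 1 in the same order. Over all repeat names tested, 68.8% rose with G9a hairpins and 75.5% with SUV39H1 hairpins. Against repeat totals the Tigger names turned to 3 higher and 11 lower with G9a hairpins and to 3 higher and 12 lower with SUV39H1 hairpins. Among all repeat names 21.6% were then higher and 19.3% lower with G9a hairpins, and 32.5% and 19.1% with SUV39H1 hairpins. Medians over the Tigger names were then 0.01 and -0.02. These counts were not tested against each other.

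The mariner names went apart. MADE1, a short non-autonomous relative of HSMAR1, stood at 20.4, 22.1 and 20.7 CPM in G9a hairpin 2 libraries and 22.3, 20.3 and 19.1 CPM in hairpin 3 libraries, at 20.9, 21.4 and 19.8 CPM in SUV39H1 hairpin 2 libraries and 21.3, 21.4 and 21.2 CPM in hairpin 4 libraries, against 15.3, 16.1 and 15.2 CPM in scrambled libraries. It was higher in every hairpin library and rose by 0.42 ± 0.07 with G9a hairpins and by 0.43 ± 0.07 with SUV39H1 hairpins (SE, edgeR adjusted p = 4.97e-06 and 1.8e-06). HSMAR1 itself stood at 92.5 to 98.4 CPM in G9a hairpin libraries, 82.1 to 98.8 CPM in SUV39H1 hairpin libraries and 89.9 to 96.8 CPM in scrambled libraries. These overlap, except that all 3 SUV39H1 hairpin 2 libraries, at 82.1 to 83.8 CPM, lay below the scrambled ones.

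HSMAR1 was not called in the mean of the hairpins of either knockdown, at 0.00 ± 0.04 for G9a and -0.06 ± 0.04 for SUV39H1 on the log2 scale (SE, edgeR adjusted p = 0.928 and 0.14). With SUV39H1 hairpin 2 alone it fell by 0.18 (edgeR adjusted p = 0.00129), and with hairpin 4 it was at 0.05 and not called (edgeR adjusted p = 0.334). Against repeat totals it was lower in both, at -0.24 and -0.35, and MADE1 was higher, at 0.18 and 0.14. Scrambled libraries of HSMAR1 also stood above DMSO libraries, by 0.16 on the log2 scale (edgeR adjusted p = 0.0307), though single libraries overlapped. For MADE1 that change was -0.07 and not called. The difference between the MADE1 and HSMAR1 changes was not tested. MADE1 was named after its values were seen, as a relative of HSMAR1.

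The names with the most counts in their families spanned a wide range of changes. MER5A stood at 401, 410 and 420 CPM in G9a hairpin 2 libraries, against 359, 373 and 365 CPM in scrambled libraries, and rose by 0.15 ± 0.03 with G9a and by 0.17 ± 0.03 with SUV39H1 hairpins (SE, edgeR adjusted p = 0.000376 and 6.04e-05). Charlie4z rose by 0.10 ± 0.04 with G9a hairpins (SE, edgeR adjusted p = 0.0245) and was not called with SUV39H1 hairpins, at 0.03 ± 0.04 (SE, edgeR adjusted p = 0.532). Its G9a call was lost without hairpin 2 replicate 1 or 3 (0.09 and 0.08, edgeR adjusted p = 0.0552 and 0.0751), hairpin 3 replicate 1 or 2 (0.06 and 0.09, edgeR adjusted p = 0.156 and 0.0535) or scrambled replicate 1 (0.10, edgeR adjusted p = 0.0687), with the log2 change near the full value except without hairpin 3 replicate 1. It was lower against repeat totals, at -0.14. Kanga2_a was not called in either mean, at 0.00 ± 0.05 and -0.08 ± 0.05, but the SUV39H1 hairpins went apart, with a fall of 0.21 for hairpin 2 (edgeR adjusted p = 0.00257) and 0.06, not called, for hairpin 4. Looper, the piggyBac name, rose by 0.49 ± 0.09 and 0.56 ± 0.09 (SE, edgeR adjusted p = 4.7e-05 and 4.16e-06). Ricksha_c rose with G9a hairpins by 0.24 ± 0.07 (SE, edgeR adjusted p = 0.00202) and was not called with SUV39H1 hairpins, at 0.04 ± 0.07.

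**Figure D3:**
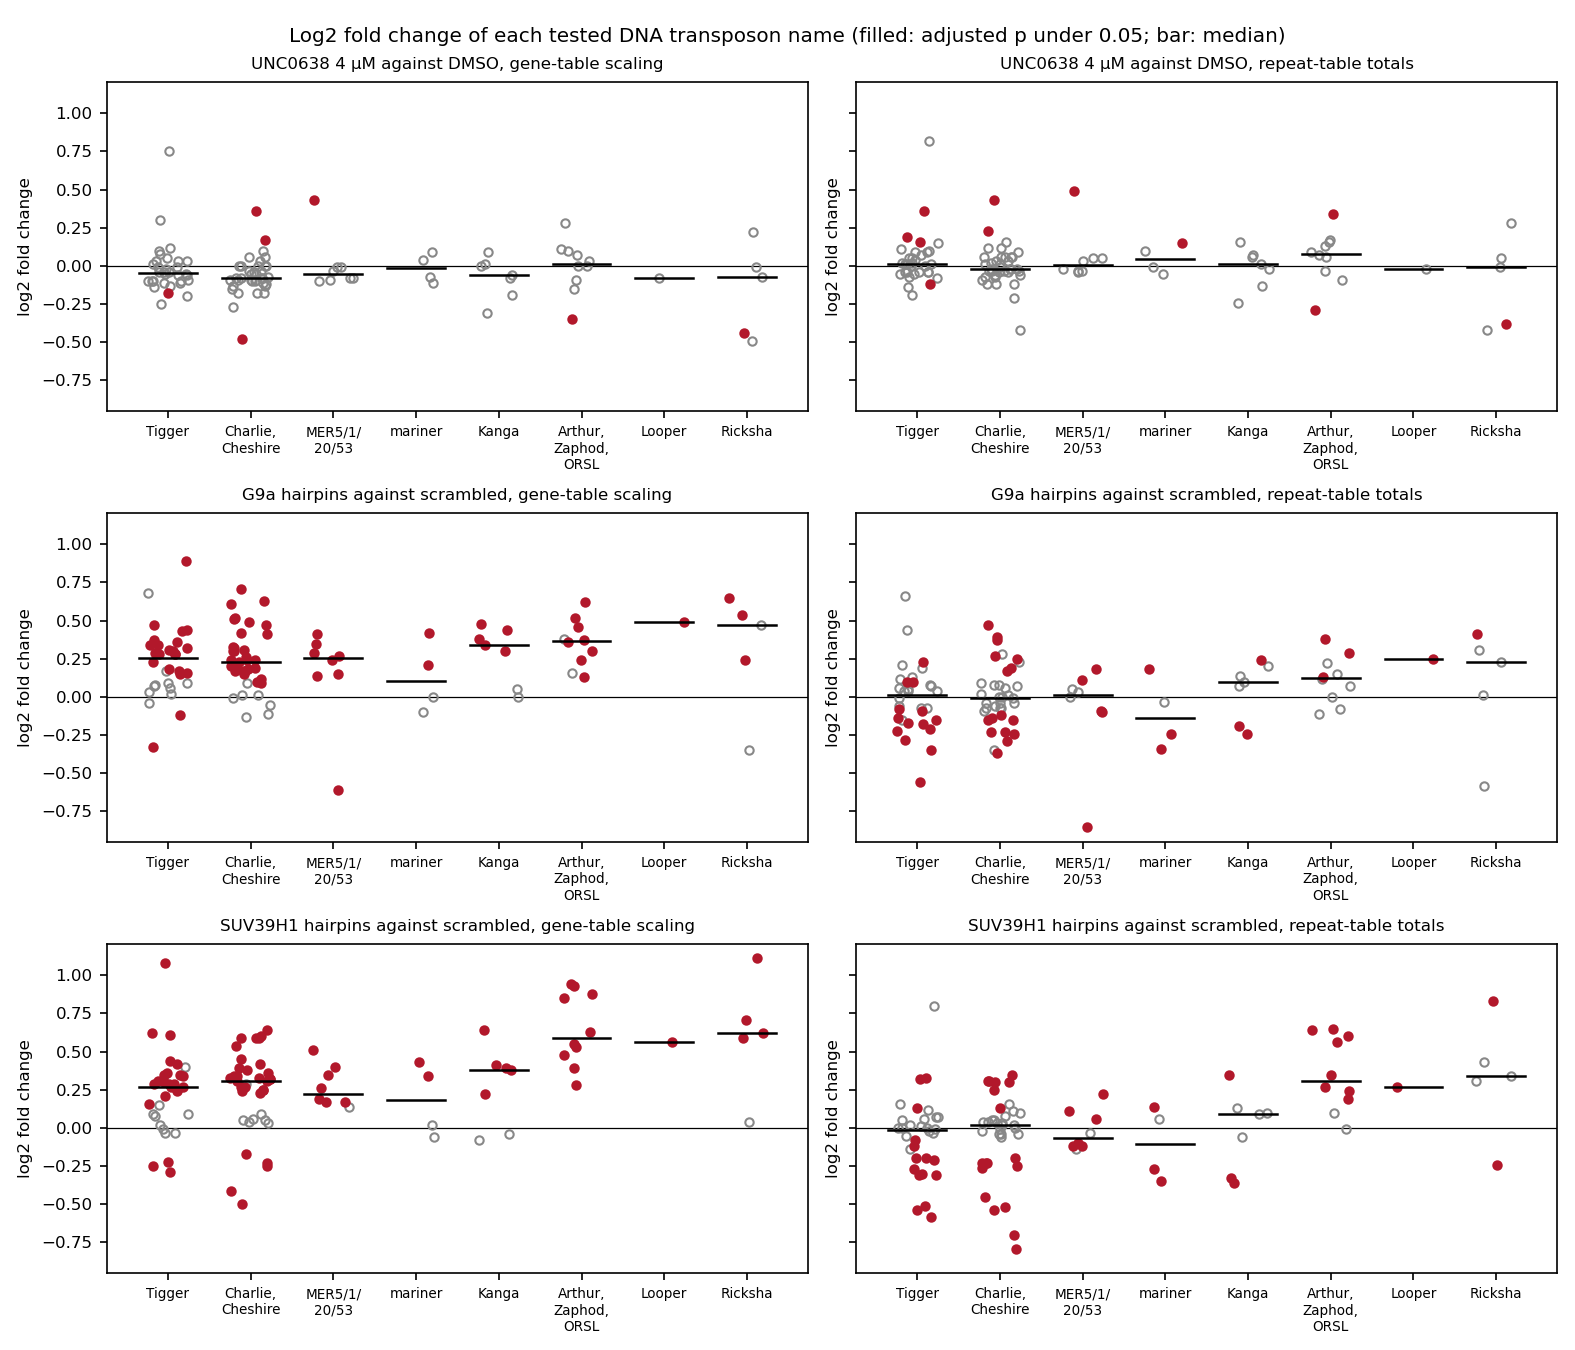
Log2 fold change of each of the 104 tested DNA transposon names by family, for UNC0638 at 4 µM, G9a hairpins and SUV39H1 hairpins (rows), scaled to gene counts (left) or to repeat totals (right); filled points have an adjusted p under 0.05 and bars are medians. With hairpins most points lie above 0 on the left and around 0 on the right. With SUV39H1 hairpins the Arthur, Zaphod and ORSL names have a median of 0.31 on the right. Looper and most Ricksha names also lie above 0 there.

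Names of low level per length moved further than names of high level per length. Split into 4 groups of 26 names by their mean CPM per Mb over all 24 libraries, the median log2 change with G9a hairpins was 0.45, 0.31, 0.18 and 0.09 in order of level, and 20, 25, 19 and 12 names rose. With SUV39H1 hairpins the medians were 0.60, 0.35, 0.24 and 0.06, and 23, 23, 19 and 9 names rose. All 3 names that fell with G9a hairpins and 6 of the 8 that fell with SUV39H1 hairpins lay in the group of highest level, from 103 to 1100 CPM per Mb.

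As a description across the 104 names, which share the same libraries and scaling and differ in depth, Pearson's r between the log of CPM per Mb and the log2 change was -0.65 with G9a hairpins and -0.74 with SUV39H1 hairpins (Spearman's rho -0.70 and -0.69). Across all 929 repeat names it was -0.40 and -0.48 (rho -0.47 and -0.48). For UNC0638 it was 0.22 at 4 µM and 0.45 at 2 µM (rho 0.34 and 0.40). Names are not independent replicates, and the same scrambled or DMSO libraries enter both axes.

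**Figure D4:**
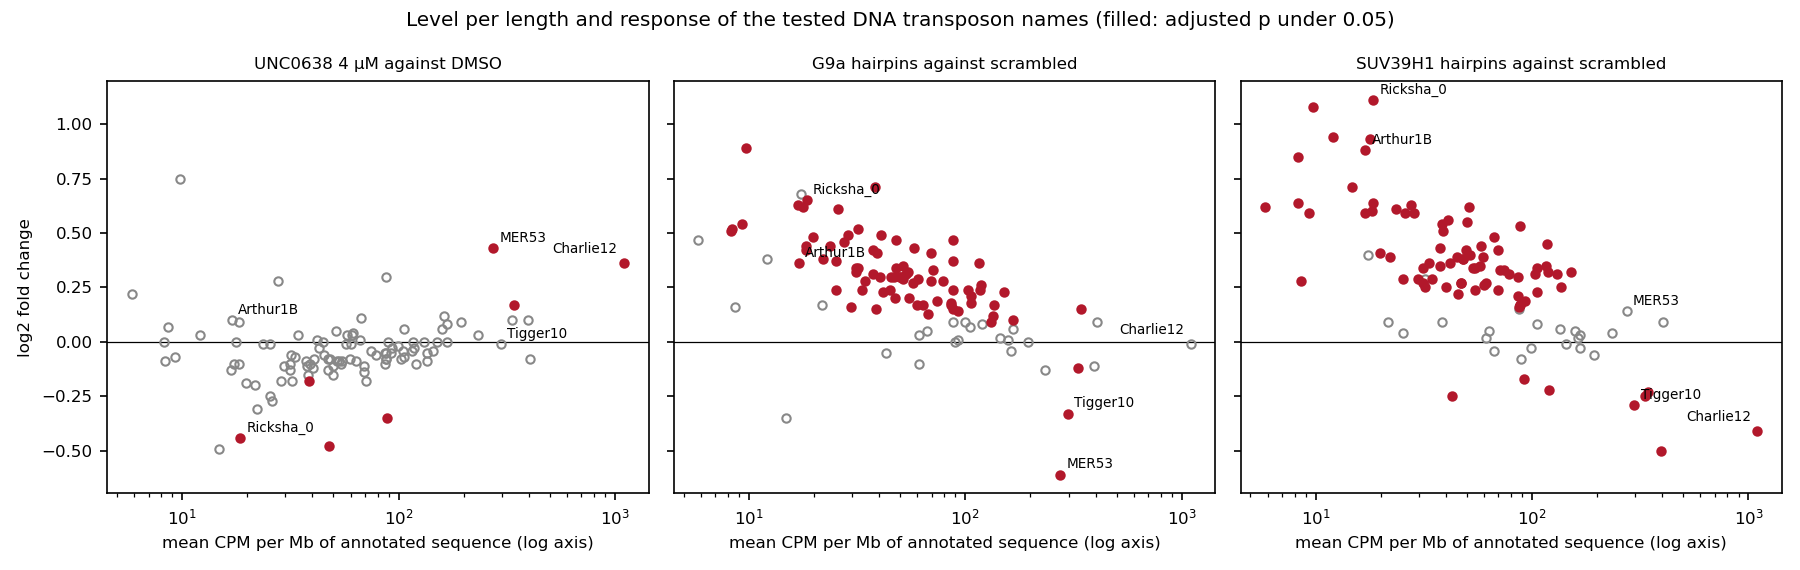
Log2 fold change of the 104 tested DNA transposon names against their mean CPM per Mb of annotated sequence over all libraries (log axis), for UNC0638 at 4 µM, G9a hairpins and SUV39H1 hairpins; filled points have an adjusted p under 0.05. With both knockdowns the points slope down from the Ricksha and Arthur names on the left to Tigger10 and Charlie12 on the right.

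Most names of other old repeats and of LINE-1 also rose with the knockdowns, in shares that were not tested against the 73.1% and 71.2% of the 104 names above. Of 65 tested DNA transposon names that the choice above leaves out, 54 rose and 2 fell with G9a hairpins (median 0.26), and 58 rose and 3 fell with SUV39H1 hairpins (median 0.29). Of 12 old LINE and SINE names 10 rose with each knockdown (medians 0.23 and 0.27). LINE-1 names reached medians of 0.32 and 0.40, with 106 of 118 higher in each, and 2 and 5 of 7 LTR12 names rose. Beside these shifts, the summed level of the 11 markers of other lineages was 3.81 to 4.76 CPM in G9a hairpin libraries, 11.3 to 16.0 CPM in SUV39H1 hairpin libraries and 16.7 to 19.9 CPM in scrambled libraries, nearly all of it CD79A, and its part in the repeat changes was not tested.

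Between G9a hairpins 2 and 3 no repeat name was called by edgeR (0.00% of names). Among the DNA transposon names 1 passed an unadjusted p under 0.05, and DESeq2 called none. The SUV39H1 hairpins differed more. Hairpin 2 was higher than hairpin 4 in 6 names and lower in 13, where 18.5% of all repeat names were called, 9.26% higher and 9.26% lower. Against repeat totals 10 were higher and 11 lower, where 21.7% of all names were called, 13.3% higher and 8.41% lower. Zaphod3, at 22.7, 21.3 and 20.9 CPM in hairpin 2 libraries and 19.0, 18.1 and 17.8 CPM in hairpin 4 libraries, was higher by 0.24 ± 0.06, ORSL by 0.19 ± 0.06 and Charlie13a by 0.22 ± 0.07 (SE, edgeR adjusted p = 0.00718, 0.0201 and 0.0355).

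HSMAR1, at 83.1, 83.8 and 82.1 CPM in hairpin 2 libraries and 94.0, 98.0 and 98.8 CPM in hairpin 4 libraries, was lower by 0.22 on the log2 scale, Kanga2_a by 0.27 and Charlie22a by 0.26 (edgeR adjusted p = 0.000951, 0.00194 and 0.0032). The count of 19 came to 8 and 7 without hairpin 2 replicate 1 or 2, to 11, 10 and 11 without hairpin 4 replicate 1, 2 or 3, and the Zaphod3 call was lost without hairpin 2 replicate 1 (0.21, edgeR adjusted p = 0.053). ORSL lost its call without hairpin 2 replicate 1 or 3 or hairpin 4 replicate 1 or 2 (0.17, 0.18, 0.19 and 0.14, edgeR adjusted p = 0.0738, 0.0534, 0.051 and 0.132), and Charlie13a without hairpin 2 replicate 2 or 3 or hairpin 4 replicate 1 or 2 (0.21, 0.17, 0.19 and 0.15, edgeR adjusted p = 0.0961, 0.157, 0.119 and 0.213). The direction was the same in each.

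Set directly against SUV39H1 hairpins, G9a hairpins were higher in 12 names and lower in 26, where 41.4% of all repeat names were called, 10.1% higher and 31.3% lower. Against repeat totals the balance turned, with 26 higher and 18 lower, where 43.5% of all names were called, 19.0% higher and 24.6% lower. Charlie6 stood at 48.2, 51.2 and 50.9 CPM in G9a hairpin 2 libraries and 48.9, 46.3 and 48.1 CPM in hairpin 3 libraries, against 34.9 to 40.5 CPM in the 6 SUV39H1 libraries. It was higher by 0.39 ± 0.03, Charlie12 by 0.41 ± 0.07 and Charlie24 by 0.17 ± 0.04 (SE, edgeR adjusted p = 1.33e-10, 8.45e-06 and 0.00026). MER53 was lower by 0.75 with an SE of 0.09, Arthur1B by 0.53 with an SE of 0.05 and Tigger3c by 0.33 with an SE of 0.03 on the log2 scale (edgeR adjusted p = 6.66e-08, 1e-09 and 4.83e-09). None of the 12 higher names was an Arthur, Zaphod or ORSL name, and 7 of those 10 names were lower. MER53 libraries did not overlap, with G9a hairpins at 119 to 139 CPM and SUV39H1 hairpins at 180 to 250 CPM.

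UNC0638 changed few DNA transposon names. At 4 µM 3 rose and 4 fell against DMSO, where 6.78% of all repeat names were called, 2.58% higher and 4.20% lower. The median was -0.05 over the DNA transposon names and -0.06 over all names. At 2 µM none rose and 3 fell, where 4.84% of all names were called, 0.753% higher and 4.09% lower, with medians of -0.09 and -0.09. At an unadjusted p under 0.05, 20 and 24 names passed at 4 and 2 µM. These 2 counts were not set against the share of all repeat names at that threshold. Between 4 and 2 µM no name was called, where 0.323% of all names were, 5 passed an unadjusted p under 0.05, and DESeq2 called none either. Against repeat totals 8 names rose and 3 fell at 4 µM, where 10.2% of all names were called, 7.22% higher and 3.02% lower, and 2 rose and none fell at 2 µM, where 2.80% were called, 2.16% higher and 0.647% lower. In 6 names every 4 µM library lay above every DMSO library and in 11 below, where 6.67% and 17.1% of all repeat names did, and at 2 µM in 0 names and in 27, where 2.91% and 26.9% did.

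ORSL was the name that fell at both doses with the smallest p at 4 µM. It stood at 16.0, 15.9 and 16.8 CPM with DMSO, 13.4, 13.8 and 14.1 CPM at 2 µM and 13.3, 13.2 and 11.8 CPM at 4 µM. No treated library reached a DMSO library, and ORSL fell by 0.35 at 4 µM and by 0.24 at 2 µM on the log2 scale, with an SE of 0.06 each (edgeR adjusted p = 0.000201 and 0.016). In the knockdown arm it rose, to 18.0 to 20.3 CPM with G9a hairpins and 19.5 to 23.7 CPM with SUV39H1 hairpins, against 14.7 to 15.8 CPM in scrambled libraries.

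Ricksha_0, Tigger2a and Charlie10b also fell at 4 µM. Ricksha_0 stood at 2.00, 2.52 and 1.98 CPM at 4 µM, against 2.82, 3.30 and 2.79 CPM with DMSO. Its groups did not overlap, and it fell by 0.44 on the log2 scale with an SE of 0.12 (edgeR adjusted p = 0.0203). Tigger2a fell by 0.18 at 4 µM and by 0.22 at 2 µM (SE 0.05 each, edgeR adjusted p = 0.0259 and 0.0117), Charlie10b by 0.48 at 4 µM (SE 0.14, edgeR adjusted p = 0.0362), and Tigger3b by 0.18 at 2 µM (SE 0.05, edgeR adjusted p = 0.0348). Tigger2a stood at 36.7, 34.3 and 33.3 CPM at 4 µM and 41.3, 36.2 and 40.6 CPM with DMSO, which overlap.

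MER53, Charlie12 and Charlie6 rose at 4 µM. MER53 stood at 264, 193 and 184 CPM with DMSO, 284, 225 and 213 CPM at 2 µM and 352, 272 and 241 CPM at 4 µM. The 4 µM and DMSO libraries overlapped, with replicate 1 the highest of each group, and the log2 change at 4 µM was 0.43 ± 0.13 (SE, edgeR adjusted p = 0.0362). Charlie12 stood at 10.7, 10.7 and 9.42 CPM at 4 µM, against 8.82, 7.55 and 7.44 CPM with DMSO, and Charlie6 at 43.4, 44.2 and 41.5 CPM, against 41.4, 37.7 and 35.9 CPM. For these names every 4 µM library lay above every DMSO library, by a small margin for Charlie6, and the log2 changes were 0.36 ± 0.09 and 0.17 ± 0.05 (SE, edgeR adjusted p = 0.0121 and 0.0362). Not 1 of the 3 was called at 2 µM. All 3 lay in the group of 26 names of highest level per length.

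Most of the inhibitor calls lay close to the threshold. That of ORSL at 4 µM held without each library in turn, and every other call was lost without at least 2 of the 6 libraries compared, while all kept their direction. Without DMSO replicate 3 the count of 7 names at 4 µM came to 2, without DMSO replicate 2 or 4 µM replicate 2 to 3. At 2 µM the count of 3 came to 0 without DMSO replicate 3 or 2 µM replicate 2 and to 1 without 2 µM replicate 1. MER53 moved by over 1.5 times, to 0.26 without 4 µM replicate 1 (edgeR adjusted p = 0.184), and lost its call also without 4 µM replicate 2 (0.47, edgeR adjusted p = 0.0522) and DMSO replicate 2 or 3 (0.37 and 0.34, edgeR adjusted p = 0.121 and 0.211).

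For the other names the log2 change stayed nearer its full value where the call was lost. Charlie12 was at 0.31 without DMSO replicate 3 and 0.33 without 4 µM replicate 2 (edgeR adjusted p = 0.0979 and 0.0522). Charlie6 was at 0.16 and 0.15 without 4 µM replicate 1 or 2 (edgeR adjusted p = 0.0675 and 0.121) and at 0.15 and 0.12 without DMSO replicate 2 or 3 (edgeR adjusted p = 0.0934 and 0.233). Ricksha_0 was at -0.39, -0.38 and -0.38 without 4 µM replicate 1, 4 µM replicate 3 or DMSO replicate 2 (edgeR adjusted p = 0.0667, 0.117 and 0.084). Tigger2a was at -0.17 and -0.15 without 4 µM replicate 2 or 3 (edgeR adjusted p = 0.0844 and 0.127) and at -0.15 and -0.16 without DMSO replicate 1 or 3 (edgeR adjusted p = 0.125 and 0.136). Charlie10b was at -0.43 and -0.49 without 4 µM replicate 2 or 3 (edgeR adjusted p = 0.112 and 0.0908) and at -0.51 and -0.35 without DMSO replicate 2 or 3 (edgeR adjusted p = 0.0514 and 0.266). At 2 µM Tigger2a, ORSL and Tigger3b lost their calls without 3, 3 and 5 of the 6 libraries, at -0.15 to -0.24 and edgeR adjusted p of 0.051 to 0.14.

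The change with UNC0638 at 4 µM differed from the change with G9a hairpins in 70 names, higher in 4 and lower in 66, by a contrast of the changes themselves, where 63.8% of all repeat names were called, 4.31% higher and 59.5% lower. The contrast for MER53 was 1.04 ± 0.17, for Tigger10 0.32 ± 0.06 and for Tigger12 0.22 ± 0.06 (SE, edgeR adjusted p = 8.75e-06, 7.23e-05 and 0.00236). MER53 had changed by 0.43 with UNC0638 and by -0.61 with G9a hairpins. For Charlie2a the contrast was -0.86 ± 0.09, for ORSL -0.72 ± 0.08 and for MER1B -0.44 ± 0.06 (SE, edgeR adjusted p = 5.12e-08, 5.2e-08 and 9.43e-07). Against repeat totals the balance turned, with 25 names higher and 17 lower, where 33.9% of all names were called, 16.8% higher and 17.1% lower.

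Set against the change with SUV39H1 hairpins, the 4 µM change was higher in 7 names and lower in 71, where 74.0% of all repeat names were called, 5.60% higher and 68.4% lower. Against repeat totals the balance turned, with 29 higher and 17 lower, where 42.9% of all names were called, 18.2% higher and 24.7% lower. The contrast for Charlie12 was 0.78 ± 0.12, for Charlie6 0.40 ± 0.06 and for Tigger12 0.35 ± 0.06 (SE, edgeR adjusted p = 2.48e-06, 4.55e-06 and 7.71e-06). For ORSL it was -0.87 ± 0.08, for Ricksha_0 -1.56 ± 0.15 and for Arthur1 -0.93 ± 0.10 (SE, edgeR adjusted p = 4.92e-10, 2.82e-09 and 1.68e-08). The arms differ in treatment, vector, selection and control, which cannot be told apart in this contrast.

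The controls differed in a few names. Scrambled libraries were higher than DMSO libraries in 6 names and lower in 2, where 8.83% of all repeat names were called, 3.88% higher and 4.95% lower. Tigger10 was higher by 0.20 ± 0.05, Charlie13a by 0.30 ± 0.07 and Charlie6 by 0.20 ± 0.05 (SE, edgeR adjusted p = 0.00417, 0.00604 and 0.00761). Arthur1B changed by -0.35 ± 0.08 and Charlie8 by -0.16 ± 0.05 (SE, edgeR adjusted p = 0.00386 and 0.0284). The other names called higher, named after their values were seen, were Tigger16b, HSMAR1 and HSMAR2, at 0.21, 0.16 and 0.19.

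The scrambled control thus stood away from DMSO in the direction opposite to the hairpin change given above for Tigger10, Charlie13a and Arthur1B. The same held for Charlie6 with SUV39H1 hairpins and for HSMAR1 with SUV39H1 hairpin 2. It also held for Charlie8, which was called higher with every hairpin. Its log2 changes were 0.24 and 0.23 with G9a hairpins 2 and 3, and 0.30 and 0.32 with SUV39H1 hairpins 2 and 4. The SUV39H1 libraries of Charlie6, at 34.9 to 40.5 CPM, overlapped the DMSO libraries, at 35.9 to 41.4 CPM. The count of 8 came to 1 without scrambled replicate 2, to 5 without scrambled replicate 1 or DMSO replicate 2 and to 4 without DMSO replicate 3. Calls were lost for Tigger10 without DMSO replicate 2 or scrambled replicate 2 (edgeR adjusted p = 0.0597 and 0.0521), Charlie13a without scrambled replicate 2 (0.0743), Charlie6 without DMSO replicate 3 or scrambled replicate 2 (0.0958 and 0.065), and Charlie8 without each of 5 of the 6 libraries (0.0534 to 0.0912). That of Arthur1B held without each.

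Host genes that descend from DNA transposons were followed as a list of 38, of which 36 were in the gene table and 34 were tested over all 20147 genes kept. With UNC0638 at 4 µM 1 rose and 4 fell, where 19.9% of all genes were called, 10.2% higher and 9.73% lower. At 2 µM 1 rose and 1 fell, where 7.17% were called, 3.83% higher and 3.34% lower. With G9a hairpins 12 rose and 4 fell, where 49.9% of all genes were called. With SUV39H1 hairpins 16 rose and 12 fell, where 67.8% were called, 35.1% higher and 32.7% lower. The shares of the list that were called, 14.7%, 5.88%, 47.1% and 82.4% in that order, lay below those of all genes in the first 3 comparisons and above in the last.

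PGBD5, a gene derived from a piggyBac transposase, stood at 7.76, 9.07 and 9.18 CPM in DMSO libraries, 13.4 to 14.1 CPM at 2 µM and 14.6 to 14.8 CPM at 4 µM. The groups did not overlap, and PGBD5 rose by 0.77 ± 0.07 at 4 µM and 0.68 ± 0.07 at 2 µM (SE, edgeR adjusted p = 2.47e-09 and 7.02e-08). With SUV39H1 hairpin 2 it stood at 14.7 to 16.7 CPM and with hairpin 4 at 7.12 to 8.55 CPM, against 7.42 to 8.71 CPM in scrambled libraries. It rose with hairpin 2 by 0.93 ± 0.07 (SE, edgeR adjusted p = 4.11e-12) and was not called with hairpin 4, at -0.08 ± 0.07 (SE, edgeR adjusted p = 0.36).

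TIGD7, which descends from a Tigger transposase, stood at 6.43 to 7.10 CPM with DMSO, 4.33 to 4.79 CPM at 2 µM and 4.27 to 4.66 CPM at 4 µM. It fell by 0.62 at 4 µM and by 0.55 at 2 µM on the log2 scale, with an SE of 0.09 each (edgeR adjusted p = 4.63e-06 and 6.01e-05), and no treated library reached a DMSO library. TIGD1, another Tigger-derived gene, fell by 0.33 at 4 µM (SE 0.10, edgeR adjusted p = 0.0152) and ZBED1, a hAT-derived zinc finger gene, by 0.15 (SE 0.05, edgeR adjusted p = 0.0402). The TIGD1 call was lost without 4 µM replicate 3 or DMSO replicate 3 (edgeR adjusted p = 0.0728 and 0.113), and that of ZBED1 without each of 5 of the 6 libraries (0.0648 to 0.141). The count of 5 called genes came to 2 without 4 µM replicate 3 and to 3 without DMSO replicate 2.

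SETMAR joins a histone methyltransferase domain to a transposase that descends from an HSMAR1 copy. It stood at 6.60, 6.77 and 6.85 CPM in SUV39H1 hairpin 2 libraries and 7.48, 8.16 and 9.42 CPM in hairpin 4 libraries, against 13.5, 13.3 and 12.0 CPM in scrambled libraries and 9.83, 8.82 and 10.1 CPM in DMSO libraries. It fell by 0.79 with SUV39H1 hairpins on the log2 scale with an SE of 0.06 (edgeR adjusted p = 1.3e-11), but the scrambled group also had the highest mean of all groups, 0.42 above DMSO on the log2 scale (edgeR adjusted p = 4.41e-05). With G9a hairpins it fell by 0.20 (SE 0.06, edgeR adjusted p = 0.00677), a call lost without scrambled replicate 1 or 2 (0.0511 and 0.0517). UNC0638 left it uncalled, at 0.11 ± 0.07 at 4 µM (SE, edgeR adjusted p = 0.292).

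POGK, a pogo-derived gene with a KRAB domain, stood at 128 to 135 CPM in SUV39H1 hairpin 2 libraries, 161 to 166 CPM in hairpin 4 libraries and 162 to 166 CPM in G9a hairpin libraries, against 191 to 192 CPM in scrambled libraries and 156 to 165 CPM in DMSO libraries. It fell by 0.22 with G9a and by 0.39 with SUV39H1 hairpins on the log2 scale (SE 0.03 each, edgeR adjusted p = 1.76e-06 and 1.81e-11). Here too the scrambled libraries stood above DMSO, by 0.26 (edgeR adjusted p = 3.7e-06). RAG1, the recombinase of antigen receptor genes that descends from a transposase, rose by 0.59 ± 0.12 with G9a and by 1.19 ± 0.12 with SUV39H1 hairpins (SE, edgeR adjusted p = 0.000266 and 8.35e-10), at 1.2 to 2.0 and 1.96 to 2.53 CPM, against 0.845 to 1.28 CPM in scrambled libraries and 1.53 to 1.87 CPM in DMSO libraries. The change of RAG1 in scrambled against DMSO libraries was -0.78 ± 0.14 (SE, edgeR adjusted p = 9.17e-05), and the G9a libraries overlapped the DMSO libraries.

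PGBD1, a piggyBac-derived gene with a SCAN domain, rose by 0.36 ± 0.07 with G9a hairpins (SE, edgeR adjusted p = 0.000112). FAM200B, a hAT-derived gene, rose by 0.23 ± 0.05 with G9a and by 0.44 ± 0.04 with SUV39H1 hairpins (SE, edgeR adjusted p = 0.000172 and 2.15e-09). GTF2IRD2 and GTF2IRD2B, which are on the list, are near-identical copies whose reads may be shared, so their values are uncertain. The parent transposon names and these genes were counted in separate tables, and a read of SETMAR may be counted in both.

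**Figure D5:**
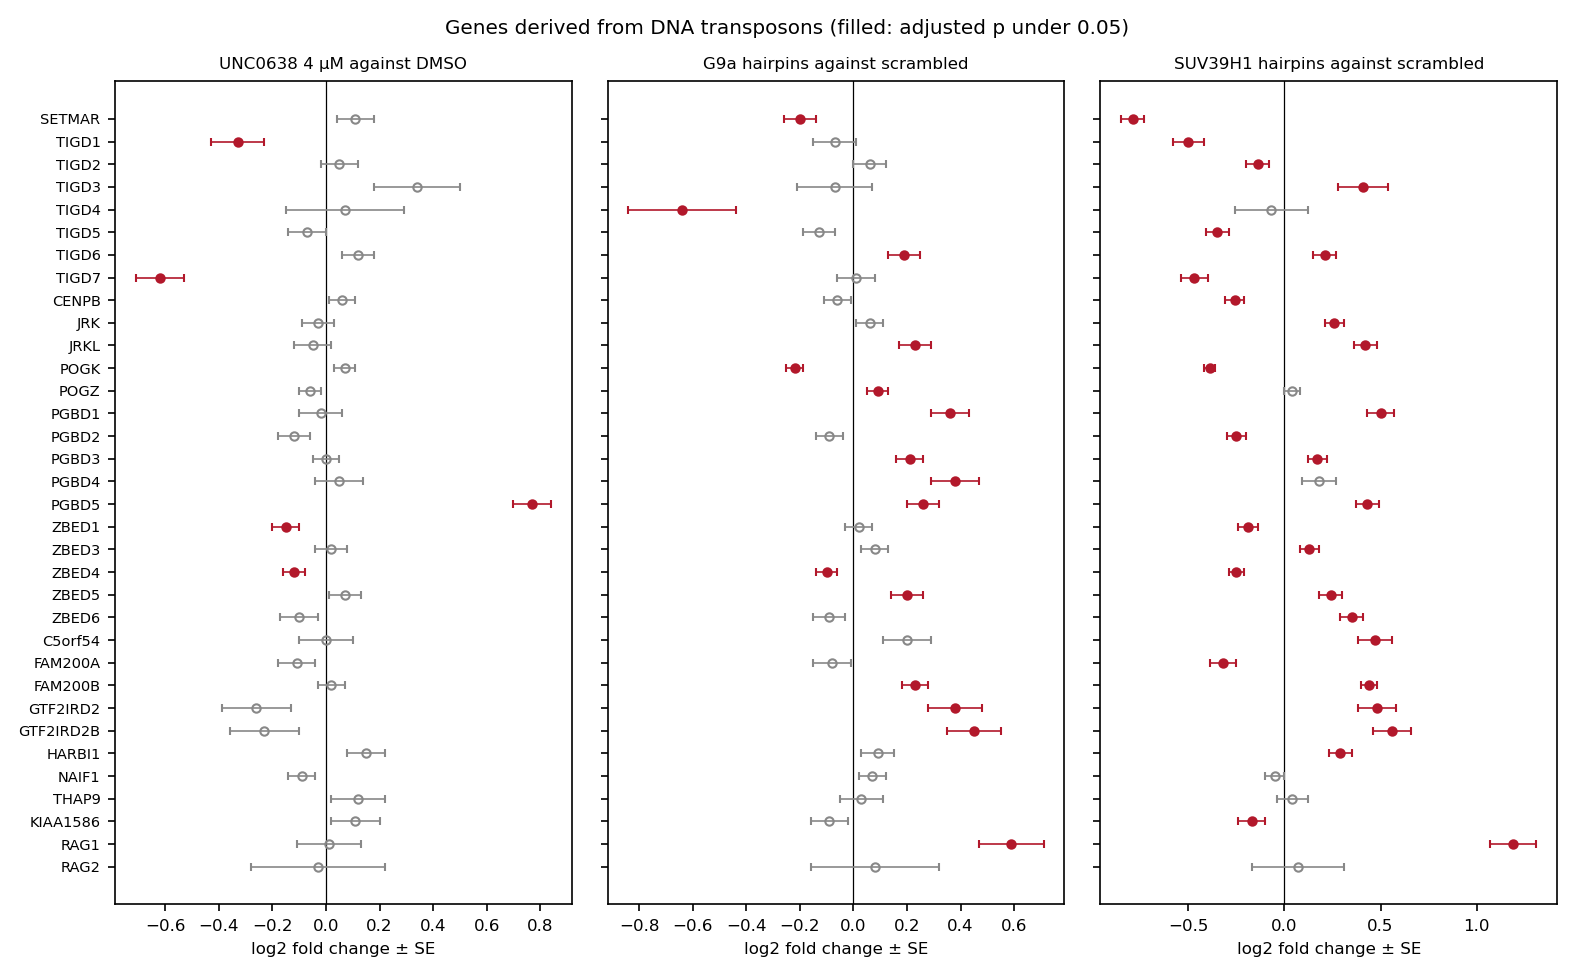
Log2 fold change ± SE of the 34 tested genes derived from DNA transposons, for UNC0638 at 4 µM, G9a hairpins and SUV39H1 hairpins; filled points have an adjusted p under 0.05 and each panel has its own axis range. PGBD5 rises and TIGD7 falls at 4 µM, and SETMAR falls and RAG1 rises with SUV39H1 hairpins.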

How the data were processed

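RNA of 24 U937 libraries was sequenced, 3 in each of 8 groups named by the labels, from TruSeq RNA v2 libraries, a kit that does not mark strand. Per the submitters' processing notes, reads were aligned with STAR and counted with featureCounts on hg19. Not given in the sources used here are versions, counting options and how multi-mapping reads were handled. The deposited tables held whole-number counts for 55773 gene names and 992 repeat names. A summed length per name was the only other deposited value used.

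Repeat counts were fitted with edgeR 4.0.16 (glmQLFit, glmQLFTest, R 4.3.3), with 1 mean per group over all 24 libraries and contrasts of those means. Names were kept by filterByExpr (minimum count 10, minimum total count 15), which left 929 repeat names and 20147 genes, and p-values were Benjamini-Hochberg adjusted over each table. The common dispersion of repeats was 0.00285, a biological coefficient of variation of 5.34%. Library sizes were gene totals with TMM factors, and again repeat totals, where 928 names passed. CPM values are scaled to gene counts with TMM factors, and CPM per Mb divides them by the summed length. The fit was also run on simulated counts that gave every name the same dispersion. Its outcome is not used as support here. Total counts set the precision, and reads without molecular identifiers are not independent molecules.

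Alternatives were repeat totals without and with TMM, RLE factors, DESeq2 1.42.0, no filter, the compared libraries alone, the replicate number as a block, and each library left out. The values named in the text follow a rule: up to 8 names with the smallest p in each direction of the 4 main comparisons, up to 3 in the others, the name with the most counts in each family, SETMAR and up to 4 genes per comparison with the smallest p. The members, lists and rule were chosen with earlier results of these data known. Coordinates and consensus sequences were not used here. 1 gene of the marker list is not reported here.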

Additional observations from a re-analysis of the deposited data

Results flagged for a closer look

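The changes with UNC0638 at 4 µM and with the knockdowns differed by a test of the difference itself, an edgeR quasi-likelihood contrast of each change against its own control. Against the change with G9a hairpins 70 of the 104 tested DNA transposon names differed, where 63.8% of all repeat names did, and against the change with SUV39H1 hairpins 78 did, where 74.0% of all repeat names did. Scaled to repeat totals, these counts were 42 and 46, where 33.9% and 42.9% of all repeat names did. The part of the arms' different vectors, selection and controls in these differences was not tested.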

How the results depend on the processing

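Against repeat totals without and with TMM, the counts of DNA transposon names called were 11 and 11 at 4 µM (7 against gene totals), 46 and 45 with G9a hairpins (79), 42 and 40 with G9a hairpin 2 (78), 36 and 38 with G9a hairpin 3 (69), 50 and 43 with SUV39H1 hairpin 4 (84), 42 and 42 for 4 µM against the G9a change (70), and 46 and 46 against the SUV39H1 change (78). The compared libraries alone gave 2 names at 4 µM and 5 at 2 µM (3 in the fit of all libraries), DESeq2 gave 5 at 2 µM, and for the transposon-derived genes at 4 µM (5) DESeq2 gave 3, no filter 3 and the compared libraries alone 2. The log2 ratio of the summed level was -0.06 at 2 µM, 0.18 with G9a and 0.32 with SUV39H1 hairpins against gene counts, 0.03, -0.08 and -0.07 as a share of the repeat table, and 0.21 with TMM factors for SUV39H1. The TMM and repeat-total changes follow from the scaling itself; the cause of the others was not tested.

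Against repeat totals without and with TMM, Charlie4z reversed to -0.14 and -0.16 with G9a and to -0.26 and -0.30 with SUV39H1 hairpins, MER5A to -0.09 and -0.11 and to -0.12 and -0.16 and Ricksha_c to -0.24 and -0.28 with SUV39H1 hairpins and to -0.02 with G9a hairpins under TMM only. HSMAR1 and Kanga2_a, at 0.00 and not called with G9a hairpins, had no direction to lose and came to -0.24 and -0.26 each. Of 111 results of single names, 72 kept direction and side of the threshold under every alternative run for them.

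Leaving out 1 library gave 2 to 8 names at 4 µM, 0 to 4 at 2 µM, 7 to 14 between SUV39H1 hairpins, 1 to 9 between scrambled and DMSO, and 2 to 6 transposon-derived genes at 4 µM. Without 4 µM replicate 3 and DMSO replicate 1, a setting chosen after the data were seen, the 4 µM count was 8 (6 higher and 2 lower), and 53 and 67 names differed from the G9a and SUV39H1 changes.

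The labels do not say whether same-numbered replicates were handled together. Their deviations correlated between -0.222 and 0.283 (over 0.1 in 29 of 84 pairs), with a median of 0.0608, against -0.0342 for other pairs. Of the 24 libraries, 14 correlated best with their own number. A weak sharing by number therefore cannot be told apart from none. With the replicate number as a block the counts were 10 names at 4 µM, 4 at 2 µM, 80 with G9a and 82 with SUV39H1 hairpins, and none of the 111 results of named names changed its call. Replicates of a group differed by more than sampling noise, with a chi-square per degree of freedom of at least 1.99. Depth limits the rarest names, such as Cheshire_Mars_ at 0.834 to 0.926 CPM in scrambled replicates 3 and 2.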
